A study of Homo sapiens with 9 samples.

Results

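The mechanistic target of rapamycin (mTOR) pathway was described here through 10 genes. They encode the kinase (MTOR), its complex partners (RPTOR, RICTOR, MLST8, AKT1S1 and DEPTOR), the tuberous sclerosis proteins (TSC1 and TSC2), the GTPase they restrain (RHEB) and the translational repressor 4E-BP1 (EIF4EBP1). The members were taken by gene symbol, and all 10 were among the 15570 genes of the deposited table. Of these, 9 were among the 10818 genes expressed highly enough to be tested. The 9 RNA sequencing libraries came from hCMEC/D3, an immortalised line of endothelial cells from human brain capillaries. The groups were OGD/R (4 h of oxygen and glucose deprivation in glucose-free medium in an anaerobic chamber, then 16 h of reoxygenation in normal medium, n = 3), OGD (the same 4 h of deprivation and no reoxygenation, n = 3) and untreated control (n = 3). All libraries come from 1 cell line. The labels do not say that replicates were grown apart, so each p-value reflects only the spread between these libraries, which may be technical.

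mTOR is a serine/threonine kinase that works in a pair of complexes. In mTOR complex 1 (mTORC1) the scaffold Raptor brings in substrates such as 4E-BP1 and the S6 kinases, which links amino acid, oxygen and energy supply to protein synthesis. In mTOR complex 2 (mTORC2) the scaffold Rictor directs the kinase to AKT and SGK1. The TSC1-TSC2 complex holds RHEB in its inactive form, and low energy or low oxygen normally acts through TSC2 to lower mTORC1 activity. This control is exerted mainly by phosphorylation, binding and location, none of which is measured by mRNA levels.

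Values are FPKM, fragment counts scaled by the authors for transcript length and for the mapped fragments of the library. FPKM divides by length so that levels of different genes can be set side by side. Fold changes still followed transcript length, as given below. Orders of genes of unlike length that differ between groups carry that limit. A gene is said to have risen or fallen where the adjusted p of limma over all genes tested was under 0.05, and its fold change is on the log2(FPKM + 1) scale, which understates changes of genes at a few FPKM. Summed FPKM was 442696 to 449248 in OGD/R, 585947 to 605818 in OGD and 454237 to 537878 in control, the number of reads is unknown, and Pearson correlations of log2 values were 0.98 to 0.995 within groups and 0.923 to 0.977 between them. Across all 10818 genes tested, the median log2 fold change was 0.07 for OGD/R and -0.31 for OGD, each against control, and 0.39 between OGD/R and OGD. Values called relative below have that median subtracted. Among the alternative settings, quantile normalization and median-of-ratios scaling put the libraries on a common scale, and the length trend was removed by subtracting, in each library, the smooth dependence on transcript length of each gene's deviation from its own mean.

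After 4 h of deprivation EIF4EBP1 mRNA rose, to 308 ± 13.2 FPKM in OGD against 138 ± 15.1 FPKM in control (SD, n = 3 each). After reoxygenation EIF4EBP1 was at 119 ± 9.46 FPKM (SD, n = 3), and a different set of genes stood above control. MTOR, RPTOR, TSC1 and TSC2 were each higher in OGD/R than in control, with no overlap between the groups, and the calls of these 4 genes held under all 17 alternative settings tried. By the test alone 24.7% of all genes tested rose in that comparison, beside 5 of 9 members, and 28.5% of all genes were higher without overlap. The share of all genes that met both terms, or that kept a call under all 17 alternatives, was not computed. AKT1S1 was the other member that rose in that comparison (log2 fold change 0.43, adjusted p = 0.0237). Its groups overlapped, and 9 of 17 alternatives kept the call. RHEB, RICTOR, MLST8 and EIF4EBP1 did not pass the test in that comparison. DEPTOR was below 1 FPKM in every library.

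**Figure D1:**
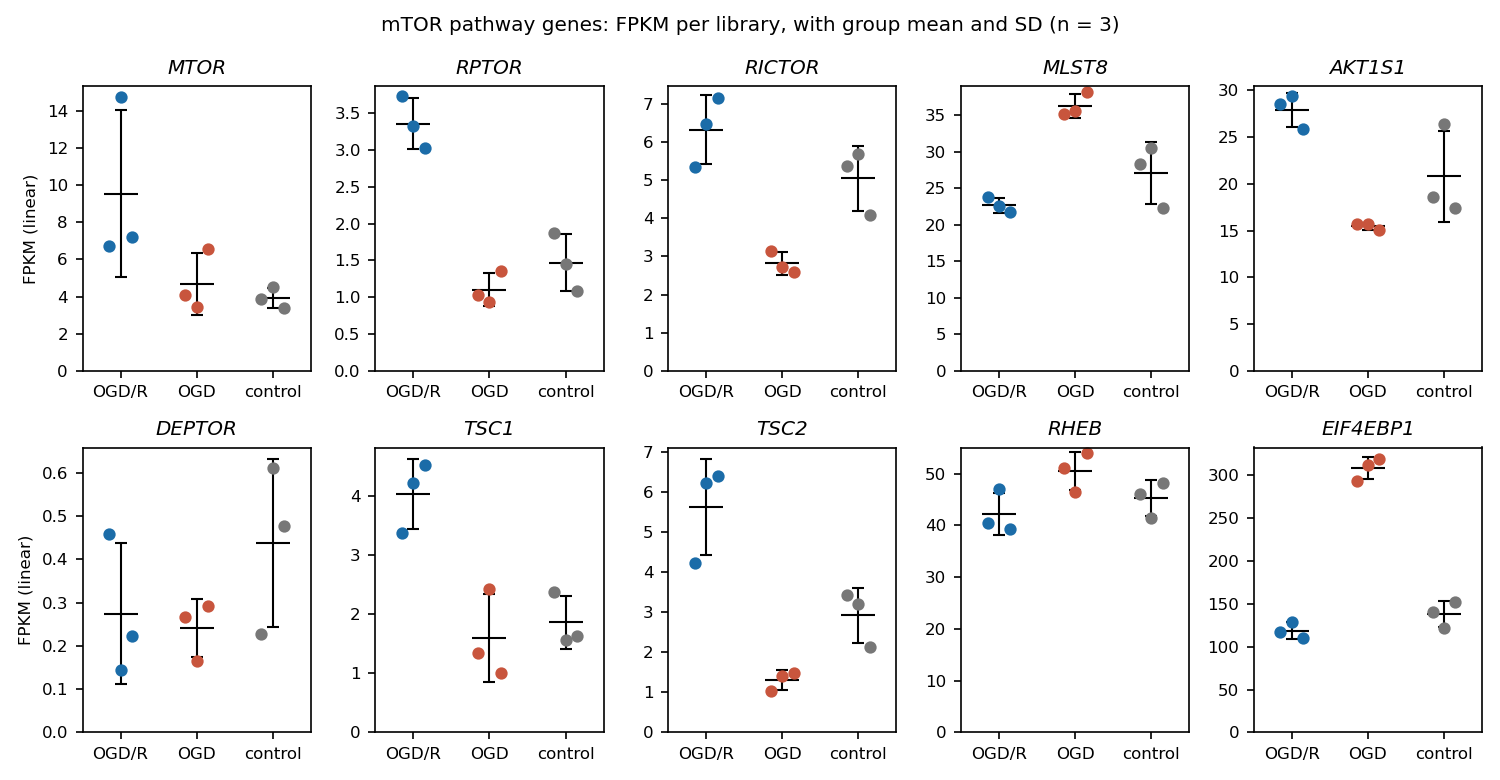
FPKM of the 10 genes (vertical axes, linear, from 0) in each library of the OGD/R, OGD and control groups, with the group mean and SD (n = 3). EIF4EBP1 lies between 294 and 319 FPKM in OGD and at no more than 152 FPKM elsewhere, and MTOR reaches 14.8 FPKM in 1 OGD/R library.

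The broad order of levels was shared by all groups. EIF4EBP1 was the highest in each and RHEB came next, at a mean of 42.3 ± 4.11 FPKM in OGD/R, 50.5 ± 3.73 FPKM in OGD and 45.2 ± 3.46 FPKM in control (SD, n = 3 each). MLST8 and AKT1S1 followed, with AKT1S1 above MLST8 in OGD/R and MLST8 above AKT1S1 in OGD, in both cases without overlap, while their control values overlapped. MTOR, RICTOR, TSC1, TSC2 and RPTOR were lower, with means between 3.36 and 9.55 FPKM in OGD/R, between 1.10 and 4.69 FPKM in OGD and between 1.47 and 5.05 FPKM in control. Among these 5, neighbours in the order overlapped in OGD/R and in control, and in OGD MTOR and RICTOR stood apart from each other and from the rest. DEPTOR was last in every group.

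The promoters of the 4 genes that were higher in OGD/R than in control without overlap are shown because these genes moved together in that comparison. AKT1S1 was called higher too, with overlap, and has no sequence in the promoter table. Sequences are from RefSeq for GRCh38.p14 and run from 250 bases before to 50 bases after the start that the RefSeq promoter table uses. For TSC1 that start lies 762 bases inside the gene as annotated, so its window does not cover the outermost gene start. For TSC2 the table has a further window with a later start, which was not used here. They lie at chr1:11262502-11262801 on the minus strand (MTOR), chr17:80544588-80544887 on the plus strand (RPTOR), chr9:132944567-132944866 on the minus strand (TSC1) and chr16:2047735-2048034 on the plus strand (TSC2). Capitals mark matches, on either strand, to the ATF4 and CHOP element TGATGNAA, the hypoxia response core ACGTG, the lysosomal CLEAR core TCACGTGA or the ER stress response element (ERSE).
MTOR: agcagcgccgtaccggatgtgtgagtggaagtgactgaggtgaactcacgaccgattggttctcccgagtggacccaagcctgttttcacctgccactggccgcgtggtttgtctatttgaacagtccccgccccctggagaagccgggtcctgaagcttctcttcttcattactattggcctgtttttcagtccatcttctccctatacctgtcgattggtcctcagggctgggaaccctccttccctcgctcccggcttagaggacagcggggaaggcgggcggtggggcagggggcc
RPTOR: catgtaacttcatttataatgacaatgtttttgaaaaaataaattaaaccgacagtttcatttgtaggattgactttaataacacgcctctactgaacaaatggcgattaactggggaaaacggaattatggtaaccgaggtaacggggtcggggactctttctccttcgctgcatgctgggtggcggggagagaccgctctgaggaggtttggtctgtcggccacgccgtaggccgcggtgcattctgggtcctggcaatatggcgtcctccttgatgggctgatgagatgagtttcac
TSC1: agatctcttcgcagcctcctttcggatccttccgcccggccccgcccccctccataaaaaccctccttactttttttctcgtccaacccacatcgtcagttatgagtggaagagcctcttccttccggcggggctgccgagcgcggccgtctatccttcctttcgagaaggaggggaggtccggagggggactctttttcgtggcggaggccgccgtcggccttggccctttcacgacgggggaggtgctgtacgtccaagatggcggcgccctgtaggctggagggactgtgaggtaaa
TSC2: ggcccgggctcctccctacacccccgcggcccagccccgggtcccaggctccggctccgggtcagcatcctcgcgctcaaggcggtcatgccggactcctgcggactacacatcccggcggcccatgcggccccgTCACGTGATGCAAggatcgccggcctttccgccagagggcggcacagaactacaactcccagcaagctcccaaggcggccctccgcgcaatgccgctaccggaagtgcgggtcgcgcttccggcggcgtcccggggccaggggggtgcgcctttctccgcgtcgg

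Of 35116 promoters of the same length, 3.62% held TGATGNAA, 21.4% held ACGTG, 0.98% held TCACGTGA and 0.0769% held the ER stress element. The TSC2 promoter held 1 TCACGTGA and 1 TGATGNAA, which overlap in the run TCACGTGATGCAA that begins 115 bases before the start. Its 2 matches to ACGTG, 1 on each strand, lie inside that TCACGTGA. None of the 4 motifs occurred in the MTOR and RPTOR windows or in the TSC1 window, which lies inside the gene. For the hypoxia response core only the string ACGTG was searched. Another form of that core, GCGTG, was not searched or marked. It can be read in the printed MTOR window and, on the other strand, in the RPTOR window. The share of all promoters that hold GCGTG was not computed. RICTOR and RHEB, the other members with a sequence in the promoter table, each held 1 ACGTG and none of the other 3 motifs. A match describes the letters in the window and says nothing about binding.

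The kinase and its scaffolds came first. MTOR (NCBI Gene 2475, GRCh38.p14 chromosome 1, 11106535 to 11262551, minus strand) was listed at 6.70, 14.8 and 7.20 FPKM in OGD/R replicates 1 to 3, at 4.09, 3.42 and 6.56 FPKM in OGD and at 3.88, 4.50 and 3.40 FPKM in control. All OGD/R libraries lay above all others, the lowest of them by a small margin over OGD replicate 3, and OGD/R replicate 2 was far above its group. MTOR rose in OGD/R against control by a log2 fold change of 1.02 (SE 0.26, adjusted p = 0.00775) and in OGD/R against OGD by 0.85 (SE 0.26, adjusted p = 0.0107). Without OGD/R replicate 2 the first of these was 0.70 (adjusted p = 0.0299) and the second 0.52 (adjusted p = 0.0509), which ended the second call. That second call was also lost under median-of-ratios scaling (adjusted p = 0.148), after quantile normalization (adjusted p = 0.308) and with the length trend removed (0.17, adjusted p = 0.573). OGD against control gave 0.18 (adjusted p = 0.575), or 0.49 (adjusted p = 0.120) under median-of-ratios scaling, 0.55 (adjusted p = 0.102) on quantile-normalized values and 0.59 (adjusted p = 0.0730) with the length trend removed. ANGPTL7, which lies within MTOR on the genome, read at most 0.0145 FPKM.

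RPTOR, the Raptor gene (NCBI Gene 57521, chromosome 17, 80544838 to 80966368, plus strand), had 3.72, 3.32 and 3.03 FPKM in OGD/R, 1.02, 0.932 and 1.36 FPKM in OGD and 1.87, 1.45 and 1.08 FPKM in control. The OGD/R libraries were above both other groups, and OGD and control overlapped. RPTOR rose in OGD/R against control by 0.83 (SE 0.15, adjusted p = 0.00104) and against OGD by 1.05 (SE 0.15, adjusted p = 5.11e-05), a value that was 0.36 (adjusted p = 0.0435) with the length trend removed and 1.53 with a pseudocount of 0.1. It gave -0.22 in OGD against control (adjusted p = 0.211), a direction that turned to 0.093 after quantile normalization and 0.22 with the length trend removed.

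RICTOR, the mTORC2 scaffold (NCBI Gene 253260, chromosome 5, 38937920 to 39074399, minus strand), followed another course. It had 5.35, 6.48 and 7.15 FPKM in OGD/R, 3.16, 2.71 and 2.59 FPKM in OGD and 5.36, 5.69 and 4.09 FPKM in control. The OGD libraries were below all others, and OGD/R overlapped with control. RICTOR fell by 0.66 in OGD against control (SE 0.15, adjusted p = 0.00265) and rose by 0.94 in OGD/R against OGD (SE 0.15, adjusted p = 0.000115), whereas OGD/R against control gave 0.28 (adjusted p = 0.146). The fall did not pass on quantile-normalized values (-0.27, adjusted p = 0.0684) or with the length trend removed (-0.25, adjusted p = 0.0826), nor the rise with the length trend removed (0.26, adjusted p = 0.0560). Under median-of-ratios scaling they were -0.36 and 0.54, both called. RICTOR overlaps OSMR on the genome, which averaged 34.9 FPKM in OGD/R, 9.58 FPKM in OGD and 17.9 FPKM in control, and whether the counting used strand is not given.

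MLST8, the small WD-repeat subunit of both complexes (NCBI Gene 64223, chromosome 16, 2205454 to 2209453), moved the other way. It had 23.7, 22.5 and 21.7 FPKM in OGD/R, 35.1, 35.5 and 38.1 FPKM in OGD and 28.3, 30.5 and 22.3 FPKM in control. The OGD libraries were above all others. MLST8 rose by 0.42 in OGD against control (SE 0.11, adjusted p = 0.00687) and fell by 0.65 in OGD/R against OGD (SE 0.11, adjusted p = 0.000211), and both calls held under all 17 alternatives (0.29 to 0.79 for the rise, -1.13 to -0.62 for the fall). OGD/R against control gave -0.23 (adjusted p = 0.110), which was called lower without control replicate 3 (-0.36, adjusted p = 0.0104), on quantile-normalized values (adjusted p = 0.0471) and under median-of-ratios scaling (adjusted p = 0.0324). Its genomic neighbour BRICD5, which overlaps it, averaged 4.25 FPKM in OGD/R, 1.15 FPKM in OGD and 3.65 FPKM in control.

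Of the inhibitory subunits, AKT1S1 encodes PRAS40, which restrains mTORC1 until AKT phosphorylates it (NCBI Gene 84335, chromosome 19, 49869033 to 49878356). It had 28.5, 29.3 and 25.8 FPKM in OGD/R, 15.7, 15.7 and 15.0 FPKM in OGD and 18.6, 26.4 and 17.5 FPKM in control. The OGD libraries lay below all others, and control replicate 2 lay within the OGD/R range. AKT1S1 rose by 0.81 in OGD/R against OGD (SE 0.13, adjusted p = 0.000174), a call that did not survive median-of-ratios scaling (0.34, adjusted p = 0.0506) or removal of the length trend (0.27, adjusted p = 0.105). Its fall of 0.38 in OGD against control (SE 0.13, adjusted p = 0.0272) was kept by 9 of 17 alternatives and failed without control replicate 2 or any 1 of the OGD libraries, with 0.013 (adjusted p = 0.945) once the length trend was removed. Its rise of 0.43 in OGD/R against control (SE 0.13, adjusted p = 0.0237) was also kept by 9 of 17, and was lost without control replicate 1 or 3 or OGD/R replicate 1 or 2. AKT1S1 overlaps TBC1D17, which averaged 17.6 FPKM in OGD/R, 10.6 FPKM in OGD and 17.9 FPKM in control. DEPTOR, an inhibitor of the kinase in both complexes (NCBI Gene 64798, chromosome 8, 119873722 to 120050918), had 0.458, 0.144 and 0.222 FPKM in OGD/R, 0.266, 0.166 and 0.293 FPKM in OGD and 0.228, 0.610 and 0.477 FPKM in control. These ranges overlapped, and DEPTOR did not enter the main fit, which required 1 FPKM in 3 libraries. Fitted with no filter it gave adjusted p of 0.201 to 0.854 over the 3 comparisons.

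TSC1, which encodes hamartin, the stabilising partner of TSC2 (NCBI Gene 7248, chromosome 9, 132891349 to 132945378, minus strand), had 3.37, 4.21 and 4.51 FPKM in OGD/R, 1.34, 2.42 and 0.998 FPKM in OGD and 2.38, 1.56 and 1.63 FPKM in control. The OGD/R libraries lay above both other groups, and OGD overlapped with control. TSC1 rose in OGD/R against control by 0.82 (SE 0.20, adjusted p = 0.00574) and against OGD by 0.99 (SE 0.20, adjusted p = 0.000656). The second call did not hold on quantile-normalized values (0.45, adjusted p = 0.0661) or with the length trend removed (0.31, adjusted p = 0.183). OGD against control gave -0.17 (adjusted p = 0.473), and the sign changed under the 3 scaling alternatives (0.073 to 0.25).

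TSC2 encodes tuberin, the subunit that acts on RHEB (NCBI Gene 7249, chromosome 16, 2047985 to 2089491, plus strand). It had 4.24, 6.23 and 6.40 FPKM in OGD/R, 1.02, 1.41 and 1.48 FPKM in OGD and 3.43, 3.21 and 2.13 FPKM in control. The 3 groups did not overlap at any point, with OGD lowest and OGD/R highest. TSC2 fell by 0.76 in OGD against control (SE 0.18, adjusted p = 0.00349), a value of -1.09 with a pseudocount of 0.1 and -0.42 on quantile-normalized values, and a call lost with the length trend removed (-0.32, adjusted p = 0.103). It rose by 1.51 in OGD/R against OGD (SE 0.18, adjusted p = 1.19e-05), more than 95.4% of the genes tested, and by 0.76 in OGD/R against control (SE 0.18, adjusted p = 0.00528). Both rises held under all 17 alternatives (0.82 to 2.02 and 0.51 to 0.93). PKD1 overlaps TSC2 and averaged 1.83 FPKM in OGD/R, 0.243 FPKM in OGD and 0.729 FPKM in control.

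RHEB, the GTPase that switches on mTORC1 (NCBI Gene 6009, chromosome 7, 151466012 to 151519895, minus strand), differed by little between groups on the deposited scale. It had 40.5, 47.0 and 39.3 FPKM in OGD/R, 51.1, 46.6 and 53.9 FPKM in OGD and 46.0, 41.5 and 48.3 FPKM in control. All 3 groups overlapped. Its fall of 0.25 in OGD/R against OGD (SE 0.10, adjusted p = 0.0360) was lost without OGD replicate 1 or 3 or OGD/R replicate 1 or 3 (adjusted p from 0.0900 to 0.142), and was -0.74 (adjusted p = 6.05e-05) under median-of-ratios scaling. OGD against control gave 0.16 (adjusted p = 0.190), called higher on quantile-normalized values (0.26, adjusted p = 0.0370), under median-of-ratios scaling (0.53, adjusted p = 0.00124) and with the length trend removed (0.33, adjusted p = 0.00977). OGD/R against control gave -0.10 (adjusted p = 0.454) and was called under none of the 17 alternatives.

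EIF4EBP1 encodes 4E-BP1, which blocks cap-dependent translation by binding eIF4E until mTORC1 phosphorylates it (NCBI Gene 1978, chromosome 8, 38030534 to 38060365). It had 117, 129 and 109.9 FPKM in OGD/R, 294, 312 and 319 FPKM in OGD and 141, 122 and 152 FPKM in control. All OGD libraries lay above all others, and OGD/R overlapped with control. EIF4EBP1 rose by 1.15 in OGD against control (SE 0.10, adjusted p = 4.94e-06), above 99.0% of the genes tested, and fell by 1.37 in OGD/R against OGD (SE 0.10, adjusted p = 3.64e-07). Both calls held under all 17 alternatives, at 0.95 to 1.54 for the rise and -1.86 to -0.87 for the fall. OGD/R against control gave -0.22 (adjusted p = 0.0965), was called lower without control replicate 2 (-0.30, adjusted p = 0.0203) and under median-of-ratios scaling (-0.32, adjusted p = 0.0364), and had the other sign with the length trend removed (0.07).

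**Figure D2:**
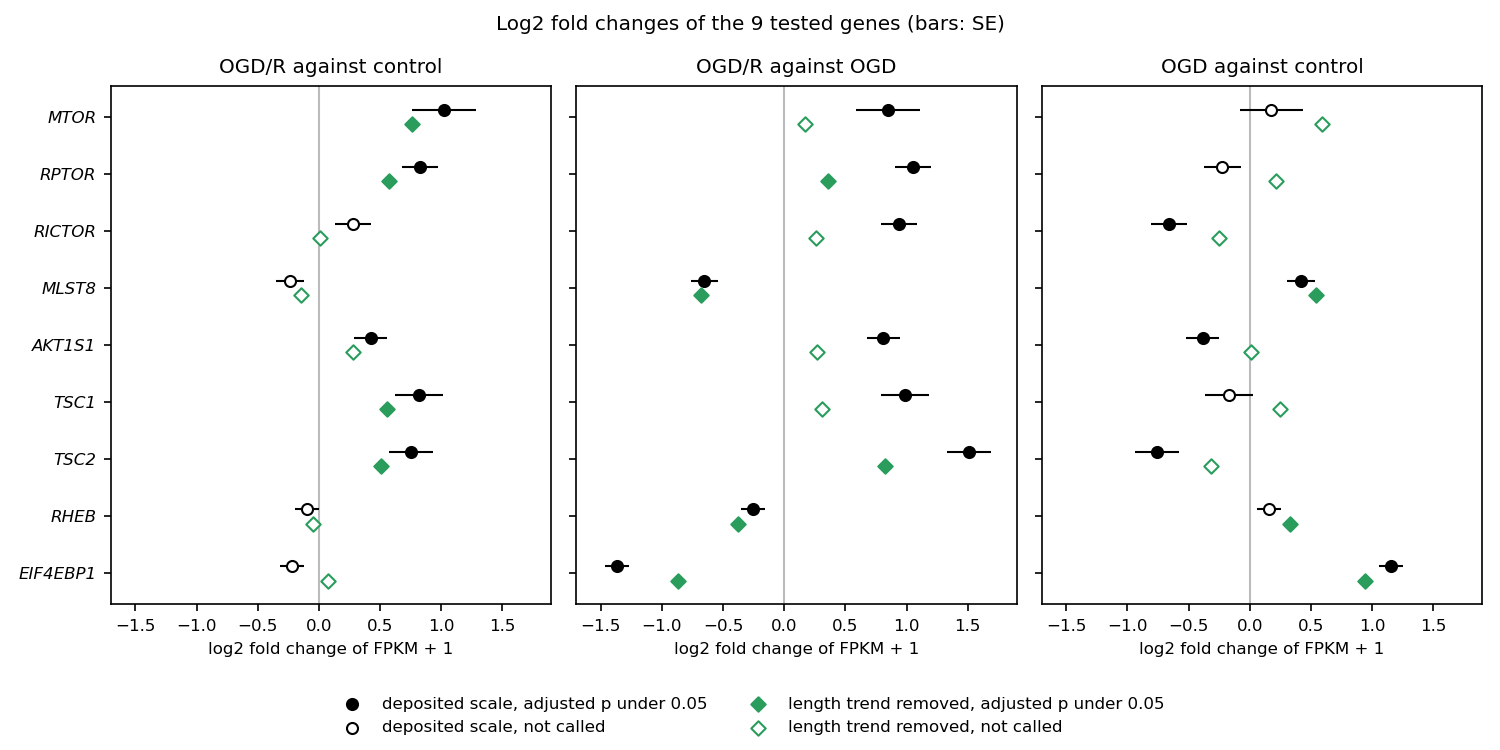
Log2 fold changes of FPKM + 1 (horizontal axes) for the 9 tested genes in the 3 comparisons, on the deposited scale (circles, with SE) and with the trend of fold change on transcript length removed (diamonds). Filled symbols have an adjusted p under 0.05, and MTOR, RPTOR, TSC1 and TSC2 are filled on both scales in OGD/R against control.

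Counted over the 9 tested members, 2 rose and 3 fell in OGD against control, where 58.0% of all tested genes were called (11.3% rising and 46.7% falling). Their median log2 fold change was -0.17. Without overlap between the groups, 2 members were higher and 3 lower, against 13.2% and 51.8% of all genes. The balance of directions over all genes rests on scaling. It was 27.1% rising and 22.4% falling under median-of-ratios scaling, 20.0% and 22.4% on quantile-normalized values, and 21.6% and 21.4% with the length trend removed.

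Set against OGD, OGD/R had 6 members that rose and 3 that fell (median 0.85), in a comparison where 70.7% of all genes were called, 53.3% rising and 17.4% falling. Without overlap 6 members were higher and 2 lower, against 57.8% and 20.4% of all genes. The shares of all genes were 31.7% rising and 35.0% falling under median-of-ratios scaling, 31.4% and 31.3% on quantile-normalized values, and 29.8% and 29.4% with the length trend removed. With 9 of 9 members called, this comparison separated the members from each other by direction, the longer genes rising and EIF4EBP1, MLST8 and RHEB falling.

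Set against control, OGD/R had 5 members that rose (MTOR, RPTOR, TSC1, TSC2 and AKT1S1) and 0 that fell (median 0.43), where 41.2% of all genes were called, 24.7% rising and 16.5% falling. Without overlap 4 members were higher and 0 lower, against 28.5% and 19.3% of all genes. The shares of all genes were 21.6% rising and 23.6% falling under median-of-ratios scaling, 22.1% and 23.1% on quantile-normalized values, and 22.1% and 22.0% with the length trend removed. The 3 comparisons share libraries, so their values for a gene are not independent of each other.

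Fold changes also followed transcript length, and the members differ widely in it. The longest coding transcript had 1020 bases for EIF4EBP1, 1870 for MLST8, 2075 for RHEB and 3640 for AKT1S1, and between 6344 and 9543 bases for TSC2, RPTOR, MTOR, TSC1 and RICTOR. The median of OGD against control was 0.21 in the shortest of 10 equal bins of length, which holds EIF4EBP1, and -0.42 in the longest, which holds MTOR, RICTOR and TSC1. These medians were -0.51 and 0.67 for OGD/R against OGD, and -0.30 and 0.26 for OGD/R against control. With this trend removed, EIF4EBP1, MLST8 and RHEB rose in OGD against control and 0 members fell. RPTOR and TSC2 rose and EIF4EBP1, MLST8 and RHEB fell in OGD/R against OGD. Set against control, MTOR (0.76, adjusted p = 0.0283), RPTOR (0.58, adjusted p = 0.00725), TSC1 (0.56, adjusted p = 0.0356) and TSC2 (0.51, adjusted p = 0.0173) rose in OGD/R. What makes fold change follow length was not tested.

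**Figure D3:**
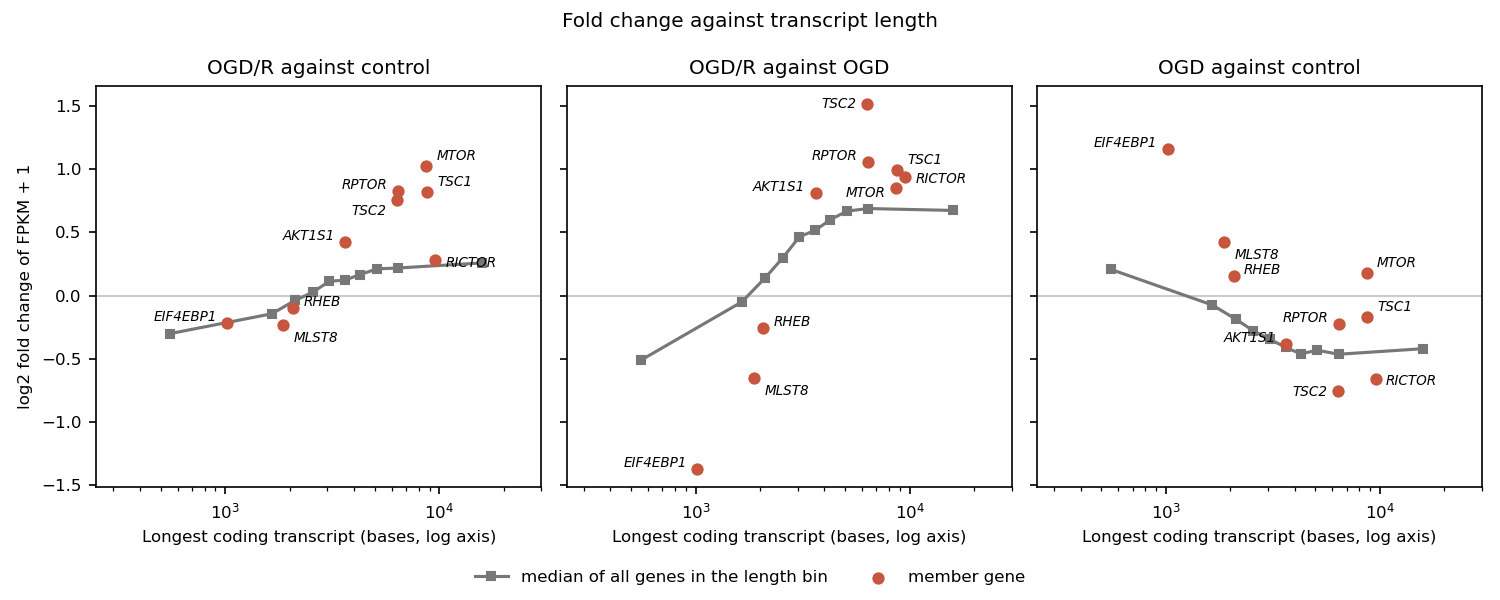
Log2 fold change of FPKM + 1 (vertical axes) against the length of the longest coding transcript (bases, log axis) for the 9 tested genes, with the median of all genes in each of 10 length bins. MTOR, RPTOR, TSC1 and TSC2 in OGD/R against control lie above the line and RICTOR, EIF4EBP1 and RHEB lie close to it. AKT1S1 lies above it too (0.43, with a median of 0.12 in its bin), and MLST8 a little below (-0.23, with a bin median of -0.14).

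An FPKM ratio of 2 genes within a library does not depend on a scale factor of that library. The tests used log2 ratios of FPKM + 1, for which this does not hold near 1 FPKM. Each was tested by a 2-sided exact permutation test of 3 libraries against 3, which cannot give a p below 0.1, and the 12 p-values were adjusted together, so none could pass. EIF4EBP1 was 3.15, 3.05 and 2.54 times EIF4E, its cap-binding target, in OGD/R, 6.30, 7.80 and 8.25 times in OGD and 2.61, 1.97 and 2.64 times in control. The OGD libraries stood apart from both other groups (log2 difference from control 1.62, exact permutation p = 0.1, adjusted 0.171). With the length trend removed, OGD differed from control by 1.02, but OGD/R differed from OGD by only -0.19 (adjusted p = 0.4 by exact permutation), against -1.35 on the deposited scale, and OGD/R from control by 0.84, against 0.27. EIF4E itself fell in OGD against control (41.8 ± 4.27 against 57.8 ± 4.08 FPKM, SD, n = 3, log2 fold change -0.46, adjusted p = 0.00219), though not under median-of-ratios scaling (adjusted p = 0.483) or with the length trend removed (adjusted p = 0.478). In OGD/R, at 41.0 ± 3.25 FPKM (SD, n = 3), EIF4E was also lower than in control (-0.49, adjusted p = 0.00236). That call held under all 17 alternatives, at -0.76 with the length trend removed. OGD/R against OGD gave -0.03 for EIF4E (adjusted p = 0.824), but -0.69 (adjusted p = 5.88e-05) with the length trend removed.

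EIF4EBP1 was 14.4, 14.2 and 12.1 times its paralogue EIF4EBP2 in OGD/R, 84.8, 97.1 and 99.8 times in OGD and 19.4, 17.0 and 24.5 times in control. No groups overlapped, and OGD differed from control by 2.03 on the log2 scale (exact permutation p = 0.1, adjusted 0.171). OGD/R differed from OGD by -2.56 and from control by -0.53, or by -1.37 and 0.018 with the length trend removed. EIF4EBP2 fell in OGD against control (3.29 ± 0.148 against 6.88 ± 0.569 FPKM, SD, n = 3, log2 fold change -0.87, adjusted p = 9.94e-05) while EIF4EBP1 rose. The pair of scaffolds gave a RICTOR to RPTOR ratio of 1.44, 1.95 and 2.36 in OGD/R, 3.08, 2.91 and 1.91 in OGD and 2.87, 3.92 and 3.77 in control. These FPKM ratios of OGD and control overlapped, and those of OGD/R lay below control. On the log2(FPKM + 1) scale both OGD/R (difference -0.55) and OGD (difference -0.43) lay below control without overlap (exact permutation p = 0.1 and adjusted 0.171 for each). That separation of OGD rests on the pseudocount of 1: with 0.1 the adjusted p was 0.327 (exact permutation, difference -0.44), and OGD/R differed from control by -0.84 and from OGD by -0.40, the last being -0.12 with 1. The TSC1 to TSC2 ratio was 0.795, 0.675 and 0.705 in OGD/R, 1.31, 1.72 and 0.674 in OGD and 0.694, 0.487 and 0.767 in control, with overlap in every comparison.

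**Figure D4:**
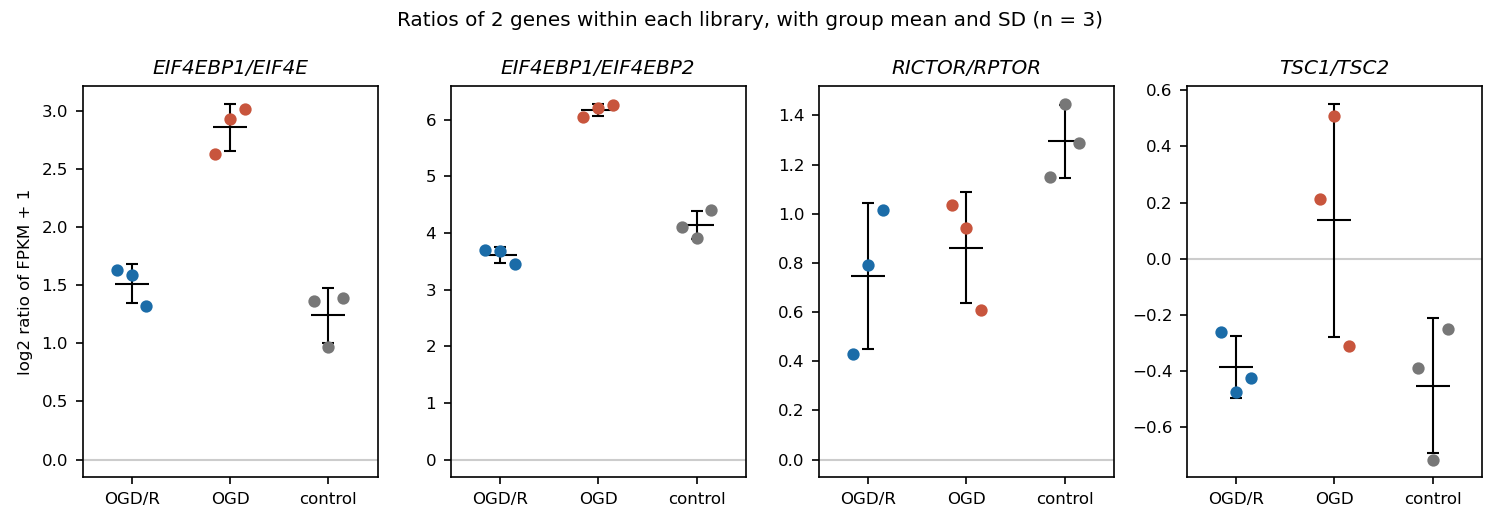
Log2 ratio of FPKM + 1 of 2 genes within each library (vertical axes), for the OGD/R, OGD and control groups, with the group mean and SD (n = 3). EIF4EBP1 over EIF4E lies between 2.63 and 3.01 in OGD and at no more than 1.63 elsewhere.

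Other genes of the pathway were taken from fixed lists. Their counts are to be read beside the shares of all genes tested. These were 11.3% rising and 46.7% falling in OGD against control, or 21.6% and 21.4% with the length trend removed. OGD/R against OGD had 53.3% and 17.4%, or 29.8% and 29.4% with that trend removed. OGD/R against control had 24.7% and 16.5%, or 22.1% and 22.0% with that trend removed. Among factors that build or complete the complexes (TELO2, TTI1 and TTI2, which fold mTOR and related kinases, the mTORC2 subunits MAPKAP1, PRR5 and PRR5L, and the TSC subunit TBC1D7), 6 of 7 were tested. Of these 0 rose and 5 fell in OGD against control (median -0.38, relative -0.07), and 0 rose and 0 fell with the length trend removed. OGD/R against OGD had 4 rising and 1 falling (median 0.60, relative 0.21), and OGD/R against control 2 rising and 1 falling (median 0.18, relative 0.12). PRR5L averaged 14.2 FPKM in OGD/R and 7.62 FPKM in control (log2 fold change 0.82, adjusted p = 0.000193), and TBC1D7 16.4 FPKM in OGD/R and 27.2 FPKM in control (-0.68, adjusted p = 0.00136).

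Among the genes that bring mTORC1 to the lysosome (Ragulator, Rag GTPases, folliculin and their partners) 12 of 13 were tested. OGD had 2 that rose and 2 that fell against control (median 0.04, relative 0.35), and 4 and 2 with the length trend removed. The other comparisons had more that fell than rose. In OGD/R against OGD 3 rose and 6 fell (median -0.30, relative -0.68), or 1 and 4 with the length trend removed. In OGD/R against control 1 rose and 6 fell (median -0.23, relative -0.29), or 1 and 2 with the length trend removed. LAMTOR1, the Ragulator subunit that anchors it to the lysosome, rose in OGD against control (112 against 82.9 FPKM, log2 fold change 0.43, adjusted p = 0.00456) and fell in OGD/R against OGD (66.8 against 112 FPKM, -0.75, adjusted p = 5.24e-05), and it overlaps LRTOMT. LAMTOR3 fell in OGD/R against control (15.5 against 23.9 FPKM, -0.61, adjusted p = 0.00156), as did the arginine sensor SLC38A9 (12.9 against 17.8 FPKM, -0.45, adjusted p = 0.0119).

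Of the GATOR, KICSTOR and amino acid sensor genes, which pass amino acid signals to the Rag GTPases, 16 of 18 were tested. OGD had 3 that rose and 5 that fell against control (median -0.05, relative 0.26), or 8 rose and 1 fell with the length trend removed. Among these genes 5 rose and 1 fell in OGD/R against OGD (median 0.25, relative -0.14). With the length trend removed 2 rose and 6 fell, so the balance depended on that step. Likewise 5 rose and 1 fell in OGD/R against control (median 0.18, relative 0.11), or 3 and 3 with the length trend removed. ITFG2, a KICSTOR subunit, rose in OGD/R against control (6.63 against 3.53 FPKM, 0.76, adjusted p = 0.00222) and overlaps FOXM1 and NRIP2. SESN2, which encodes a leucine sensor, rose in OGD/R against control (5.51 against 3.70 FPKM, 0.47, adjusted p = 0.00986), a call lost on quantile-normalized values.

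Growth factor and energy inputs had 16 of 20 tested. Of these 0 rose and 13 fell in OGD against control (median -0.69, relative -0.39), and 1 rose and 6 fell with the length trend removed. OGD/R had 15 that rose and 0 that fell against OGD (median 0.83, relative 0.44), or 6 and 1 with the length trend removed. It had 4 that rose and 1 that fell against control (median 0.09, relative 0.03), or 2 and 4 with the length trend removed. DDIT4, which encodes REDD1, an activator of TSC2 in hypoxia, fell in OGD against control (101 against 241 FPKM, -1.23, adjusted p = 8.28e-06), as did the insulin receptor substrate IRS1 (1.22 against 3.14 FPKM, -0.89, adjusted p = 0.000774) and the kinase gene RPS6KA1, whose product phosphorylates TSC2 (4.71 against 11.0 FPKM, -1.06, adjusted p = 8.13e-05). IGF1R, a growth factor receptor, rose in OGD/R against control (2.29 against 1.07 FPKM, 0.67, adjusted p = 0.000738).

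Substrates and outputs had all 22 tested. OGD had 5 that rose and 15 that fell against control (median -0.47, relative -0.16), where 11.3% of all genes rose and 46.7% fell. In OGD/R against OGD 14 rose and 3 fell (median 0.55, relative 0.16), where 53.3% of all genes rose and 17.4% fell. In OGD/R against control 9 rose and 5 fell (median 0.07, relative 0.0016), where 24.7% of all genes rose and 16.5% fell. With the length trend removed these counts were 6 and 5, 9 and 5, and 6 and 4. EIF4EBP3, the remaining 4E-BP gene, rose in OGD against control (7.54 against 1.84 FPKM, 1.57, adjusted p = 8.08e-05), and its reads may be shared with the ANKHD1-EIF4EBP3 readthrough gene, which overlaps it. The autophagy kinase gene ULK1 fell in OGD against control (1.25 against 3.80 FPKM, -1.06, adjusted p = 0.000714). SGK1, an mTORC2 substrate, rose in OGD against control (20.4 against 7.12 FPKM, 1.42, adjusted p = 2.12e-05) and in OGD/R against control (37.4 against 7.12 FPKM, 2.25, adjusted p = 2.54e-06). The translation factor gene EIF4G1 (58.2 against 19.8 FPKM, 1.53, adjusted p = 2.11e-05) and LARP1, which binds the caps of ribosomal protein mRNAs (16.1 against 5.93 FPKM, 1.32, adjusted p = 6.38e-05), rose in OGD/R against control.

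EIF4EBP1 is also known as a target of ATF4, the transcription factor of the amino acid and ER stress response, so ATF4 and 19 of its other targets were listed beside it, of which 18 genes were tested. OGD had 12 that rose and 3 that fell against control (median 0.57, relative 0.88). After reoxygenation more fell than rose. In OGD/R against OGD 4 rose and 13 fell (median -1.09, relative -1.48). In OGD/R against control 5 rose and 9 fell (median -0.35, relative -0.42). With the length trend removed these counts were 15 and 3, 4 and 14, and 5 and 9. DDIT4 and SESN2 are in this list too. DDIT3, which encodes CHOP and overlaps MARS1, rose in OGD against control (362 against 32.0 FPKM, 3.48, adjusted p = 1.02e-08). Asparagine synthetase, ASNS, fell in OGD/R against OGD (25.0 against 118 FPKM, -2.20, adjusted p = 2.02e-08), as did CHAC1, a glutathione-degrading enzyme (4.27 against 13.8 FPKM, -1.49, adjusted p = 4.42e-07). Set against control, ASNS was lower in OGD/R (25.0 against 62.3 FPKM, -1.29, adjusted p = 5.47e-06), whereas the amino acid transporter SLC7A5 was higher (43.3 against 17.1 FPKM, 1.31, adjusted p = 4.36e-05).

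**Figure D5:**
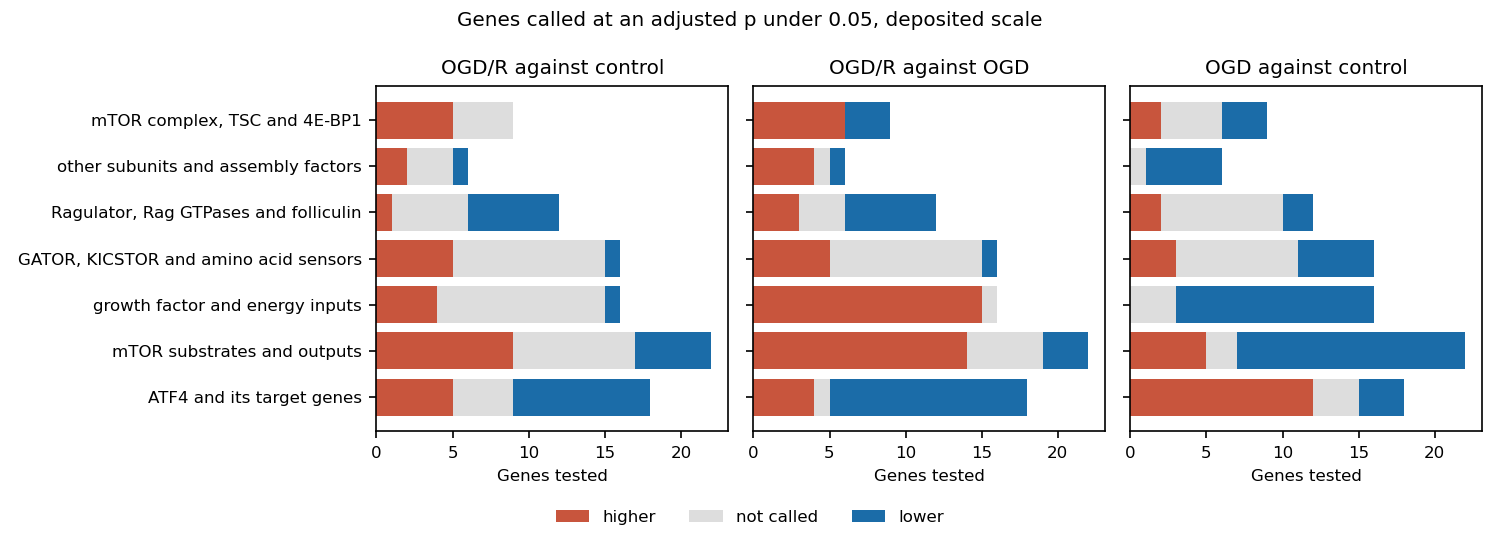
Number of tested genes that were higher, not called or lower at an adjusted p under 0.05 on the deposited scale (horizontal axes) in each list and comparison. Growth factor and energy inputs have 0 higher and 13 lower of 16 in OGD against control and 15 higher and 0 lower in OGD/R against OGD. Of all genes tested, 11.3% were higher and 46.7% lower in the first of these comparisons, and 53.3% and 17.4% in the second.

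Likeness of profile was measured as the root mean square difference of log2(FPKM + 1) over the 9 libraries after each gene was centred on its own mean, among genes with a mean of at least 5 FPKM. The genes nearest to EIF4EBP1 were HSD17B14 (0.11), CRELD1 (0.11) and the ribosomal protein gene RPL3 (0.11), where the median gene differed by 0.77. Nearest to MTOR were SPATS2L (0.20), SIPA1L1 (0.26) and FOXC2 (0.26), against a median of 0.58. Nearest to RHEB were DNAJC1 (0.05), EFL1 (0.06) and ZC3H15 (0.06), against a median of 0.36. The 9 libraries share their groups, so this describes these libraries only.

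The cell type was checked against marker genes. Of 16 endothelial markers 15 were in the table and 6 were tested, and their summed level was 52.0 to 57.7 FPKM in OGD/R, 14.3 to 16.8 FPKM in OGD and 30.3 to 37.4 FPKM in control, mostly ENG and EGFL7. VWF, CLDN5, TEK, KDR and FLT1 were at or below 0.101 FPKM in every library, so these endothelial markers were nearly absent. Other markers of the list were tested at low levels. They were PECAM1 (1.27, 0.435 and 1.11 FPKM in OGD/R, OGD and control), CDH5 (1.97, 0.343 and 1.26 FPKM), CD34 (3.08, 0.176 and 2.97 FPKM) and ROBO4 (2.38, 1.10 and 1.09 FPKM). TIE1, ERG, ESAM and MMRN2 were too low to be tested. Of 23 markers of other cell types 22 were in the table and 8 were tested, with sums of 100.4 to 121 FPKM in OGD/R, 42.4 to 43.5 FPKM in OGD and 53.3 to 67.4 FPKM in control. The matrix genes COL1A1 (29.3, 2.24 and 6.29 FPKM in OGD/R, OGD and control) and COL1A2 (26.9, 4.20 and 12.2 FPKM) and the lysosomal gene CD68 made up most of this, while PTPRC, AIF1, CX3CR1, EPCAM, CDH1 and RBFOX3 stayed at or below 0.104 FPKM. Both sums were lowest in OGD and highest in OGD/R, as were the means of RICTOR, TSC2, AKT1S1, RPTOR and TSC1. For RPTOR and TSC1 the OGD and control libraries overlapped. Over all genes tested, 46.7% fell in OGD against control and 53.3% rose in OGD/R against OGD. The part of the marker genes' cell types in the results of the members was not tested. In bulk RNA, fewer cells of a type and less RNA per cell cannot be told apart.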

How the data were processed

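RNA of hCMEC/D3 cells was sequenced in 9 libraries from 3 groups of 3, assigned by the sample titles. Per the labels' protocols, libraries were made from total RNA with a SMARTer mRNA kit. The deposited table gives 1 FPKM value per gene and library, computed by the authors, and per the submitters' processing notes GRCh38 was the build. Aligner, counting program, annotation and strand use: not given in the sources used here. Read depth is unknown, so no counting interval was computed.

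The 10818 of 15570 genes that reached 1 FPKM in 3 or more libraries went, on the log2(FPKM + 1) scale, into limma 3.58.1 (R 4.3.3), in 1 fit of all 9 libraries and 3 groups (eBayes with an intensity trend, 6 residual and 6.33 prior degrees of freedom), with no further scaling. P-values were 2-sided and adjusted by Benjamini-Hochberg over all genes tested in a comparison. The fit was run on simulated data in which a small part of the genes changed, in OGD only and in balanced directions. Those data held no shift of most genes and no length trend, unlike the present ones, so that run cannot speak to either. The 17 alternatives were a pseudocount of 0.1, no filter, median-of-ratios scaling, quantile normalization, removal of the transcript length trend (a lowess curve per library on the longest coding transcript of GENCODE 29, for 10797 genes), a robust prior, a replicate block, a fit of only the groups compared, and omission of each library. Coordinates are from RefSeq, GRCh38.p14, matched by NCBI Gene identifier, and RefSeq promoters were found for 6 members. Ratios were compared by exact permutation tests. Figures used matplotlib 3.10.9 in Python 3.11.15.

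The 10 members and the lists were chosen with earlier results of these data known. Every member is described. From the other lists, at most 4 genes with the largest fold change among those called in a comparison were named, and 3 nearest genes were named for MTOR, RHEB and EIF4EBP1. All 9 value columns matched a sample, and no pair of libraries held identical values for any gene above 0.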

Additional observations from a re-analysis of the deposited data

How the results depend on the processing

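Of 459 values of single members under the alternatives, 411 kept their direction and side of the threshold, 32 lost a call, 8 gained one and 8 changed sign, all of the last 8 from values that were not called except AKT1S1. The largest effect came from the length trend. With it removed, 3 members were called in OGD against control (0 lower) against 5 (3 lower), and 5 in OGD/R against OGD (2 higher) against 9 (6 higher). Members called lower in OGD against control numbered 1 after quantile normalization, and in OGD/R against control 2 under median-of-ratios scaling, 1 after quantile normalization and 0 to 1 with 1 library left out. Signs changed in OGD against control for AKT1S1 (0.013), RPTOR (0.22) and TSC1 (0.25) with the length trend removed, for RPTOR (0.093) and TSC1 (0.16) on quantile-normalized values, and for TSC1 (0.073) under median-of-ratios scaling. EIF4EBP1 in OGD/R against control became 0.073 and the EIF4EBP1 to EIF4EBP2 ratio 0.018 with the length trend removed. With 1 library left out, MTOR in OGD against control ran from -0.049 to 0.34, the RICTOR to RPTOR ratio in OGD/R against OGD from -0.25 to 0.042, and the TSC1 to TSC2 ratio in OGD/R against control from -0.067 to 0.17. The cause of these changes was not tested. Same-numbered libraries of different groups had correlations of their deviations between -0.20 and 0.15, so the numbers were not taken to pair them. With the replicate block, 26 of 27 member results kept their call and direction, and RHEB in OGD/R against OGD (-0.25, adjusted p = 0.0611) lost its call. The counts of members called under the block were 5 for OGD/R and 5 for OGD, each against control, and 8 for OGD/R against OGD (2 lower), and the 12 ratios kept their differences, with adjusted p from 0.375 to 0.750 by exact sign-flip tests. Values of 1 to 2 FPKM, as for RPTOR, TSC1 and TSC2 in OGD, rest on an unknown number of reads.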
